A study of Rattus norvegicus with 6 samples.

Results

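The genes described here coat the lipid droplet of the cell or turn over the triglyceride stored in it. They are the 5 perilipins (Plin1 to Plin5), the acyltransferases Dgat1 and Dgat2, the lipases Pnpla2 and Lipe, and the lipase inhibitor G0s2. They were chosen by symbol, each had a row, and they are 10 of the 33509 genes in the deposited table. Transcripts of myocardial tissue from Sprague-Dawley rats were counted in 6 RNA-seq libraries. Of these, 3 came from rats with an acute myocardial infarction model (MOD) and 3 from rats with the same model that were given XHT, which the series title names as Xinhuitong. Every library therefore came from an infarct model, and no group without infarction was analysed here. The labels gave no dose, age, time after infarction, part of the heart sampled, or statement that each library was a separate animal, so the p-values rest on the spread among libraries, and that spread may be technical. The question was how transcripts of stored-fat metabolism differ in infarcted myocardium with and without the preparation.

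As background, a heart muscle cell burns mostly fatty acids, and it passes much of the incoming fat through a small, fast-moving store of triglyceride before oxidation. Glycerol phosphate is acylated step by step, a phosphatase of the lipin family removes the phosphate, and Dgat1 or Dgat2 adds the last acyl chain. Perilipins coat the droplet and gate the access of lipases. Pnpla2, also called adipose triglyceride lipase, starts lipolysis, is activated by Abhd5 and is inhibited by G0s2. Lipe, hormone-sensitive lipase, and Mgll complete the breakdown. Plin1 belongs mainly to fat cells, Plin2 and Plin3 are found in most tissues, and Plin4 and Plin5 are abundant in striated muscle and other tissues that oxidise fat.

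Total counts lay between 16550007 and 17724689 per library, and 14488 genes had enough counts to be tested, 8 of the 10 members among them. The libraries of a group were not alike. The summed level of 12 cardiomyocyte markers was 3259.7 and 2968.6 CPM (counts scaled to library size with TMM factors) in MOD 1 and MOD 2 but 34299.5 CPM in MOD 3, and it was 83920, 51386.4 and 77330.8 CPM in XHT 1, 2 and 3. None of these markers was at 0 in any library. The 9 macrophage markers summed to between 1915.8 and 3465.5 CPM in MOD and between 547 and 776.3 CPM in XHT. The 7 fibroblast markers summed to between 21440.4 and 59772.8 CPM in MOD and between 1667.7 and 4282.8 CPM in XHT. In bulk tissue, fewer cells of a type and less RNA per cell cannot be told apart.

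The muscle perilipins and Dgat1 stood higher in XHT and G0s2 stood lower, while the general perilipins Plin2 and Plin3 and the enzyme Dgat2 had overlapping groups. Plin4 and Dgat1 rose and G0s2 fell, where a call needs an adjusted p below 0.05 (edgeR, quasi-likelihood; Benjamini-Hochberg over all tested genes). These are 2 and 1 of the 8 tested members, beside 12.4% of all tested genes called higher and 16.1% called lower. The XHT values lay wholly above those of MOD for 4 tested members and wholly below for 1, beside 24.7% and 26.6% of all tested genes. The median log2 fold change of the 8 members was 0.60, against -0.02 over all tested genes. Without XHT 1, 0 members were called in either direction, beside 0.0267% of genes each way. Without MOD 3, 5 of 9 tested members were called higher and 1 lower, beside 23.3% and 22.9% of genes. Dgat1 was the 1 member called higher without MOD 1 (beside 0.87% of genes), MOD 2 (1.54%), XHT 2 (9.81%) or XHT 3 (0.986%). G0s2 was called lower without MOD 2 (beside 3.87% of genes) and XHT 2 (14.2%), and 0 members were called lower without MOD 1 (2.55%) and XHT 3 (1.92%). DESeq2's Wald test, with 9 members tested, called 5 higher and 1 lower, beside 16.2% and 16.6% of the genes it tested. There and without MOD 3, the 5 were Plin4, Plin5, Dgat1, Lipe and Pnpla2. Pnpla2 had few counts and was not among the 8 members tested in the main fit. Scaling to total counts (6.38% and 29.8% of genes) and a block for the replicate number (14.5% and 15.9%) each left 2 higher and 1 lower.

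**Figure D1:**
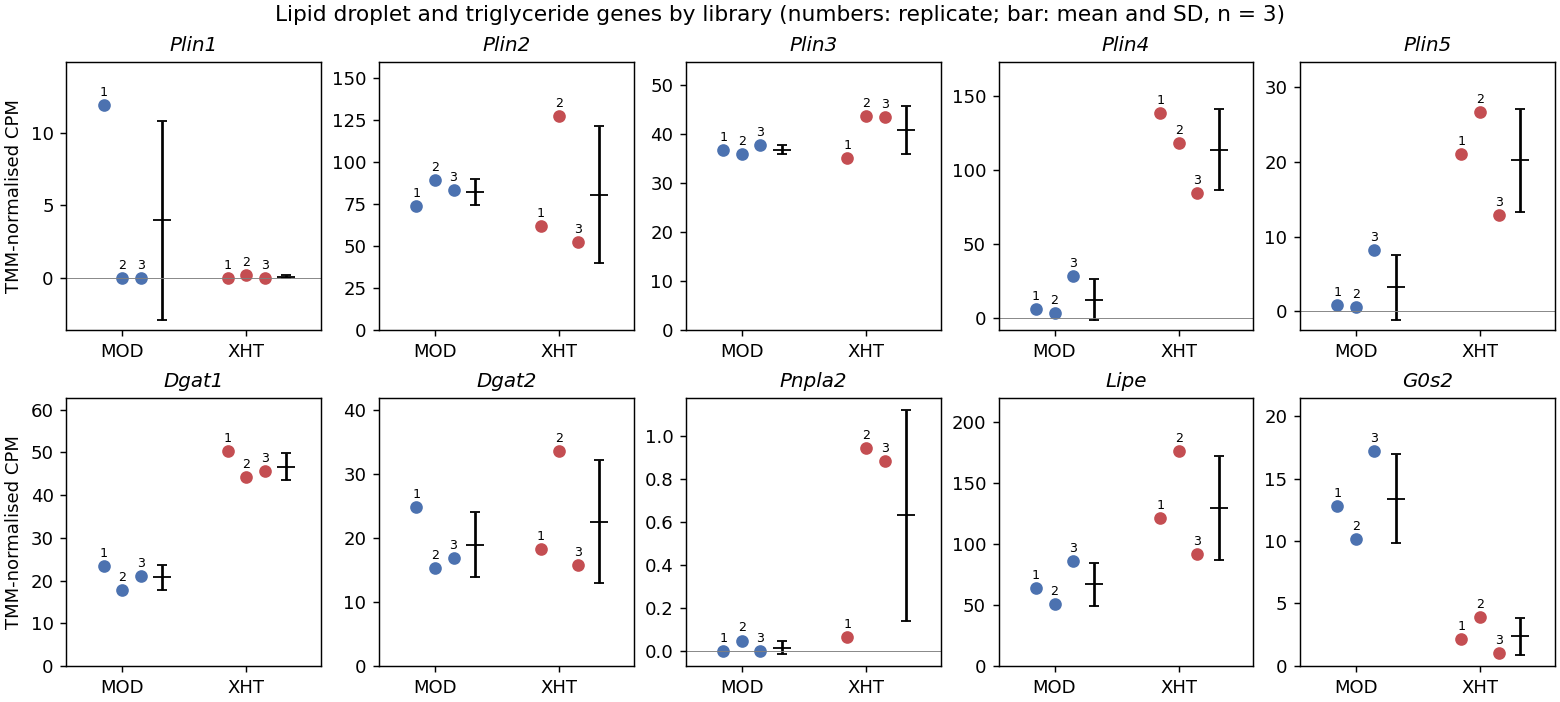
Each panel gives the TMM-normalised CPM of 1 gene in the 3 MOD libraries (blue) and the 3 XHT libraries (red), numbered by replicate, with the mean and SD (n = 3) as a bar. The groups are apart for Plin4, Plin5, Dgat1, Lipe and G0s2, the MOD value of Plin1 comes from MOD 1, and Pnpla2 stays under 1 CPM at its own identifier.

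Plin4, a perilipin of striated muscle and fat that coats newly formed droplets, had 110, 59 and 543 counts in MOD 1, 2 and 3, against 2083, 1885 and 1245 in XHT 1, 2 and 3. Every XHT library was above every MOD library, and MOD 3 was the highest of its group. On the CPM scale Plin4 rose from 12.2 ± 13.7 to 113.8 ± 27.2 (SD, n = 3 each), a log2 fold change of 3.22 ± 0.80 (SE; adjusted p = 0.0280 by edgeR's quasi-likelihood test). The call was lost without MOD 1 (adjusted p = 0.0929), MOD 2 (0.0561), XHT 1 (0.0869), XHT 2 (0.0507) or XHT 3 (0.0733), with log2 fold changes of at least 2.76. Without MOD 3 it was kept, at 4.72. MOD 3 was also the MOD library with the highest cardiomyocyte markers.

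Plin5, the perilipin that ties droplets to mitochondria in oxidative tissue, had 17, 11 and 160 counts in MOD and 316, 425 and 190 in XHT. The groups did not overlap, although the highest MOD library, MOD 3, at 8.23 CPM, came near the lowest XHT library, XHT 3, at 12.9 CPM. The means were 3.22 ± 4.34 and 20.2 ± 6.91 CPM (SD, n = 3 each). The log2 fold change of 2.65 ± 0.96 (SE) did not pass the test (adjusted p = 0.0738). It passed without MOD 3 (log2 fold change 4.82, adjusted p = 0.000403) and by DESeq2's Wald test (adjusted p = 0.00765).

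Plin5 and Plin4 are neighbours on chromosome 9 and run in the same direction, Plin5 at 10956056 to 10961782 and Plin4 at 10963723 to 10971277 on the plus strand, 1940 bases apart (coordinates as deposited; no source used here gives their build). The 250 bases before their RefSeq start sites are shown because these genes stood high in the same libraries. Those of Plin2 and G0s2 are shown for contrast, since the groups overlapped for Plin2 and G0s2 fell. They come from RefSeq on the GRCr8 build, whose coordinates differ from those of the deposited table and which has Plin4 and Plin5 on the minus strand. They are written 5′ to 3′, with the first listed start site where a gene has more than 1. Capitals mark matches to the 3 motifs searched, on both strands: AGGTCA, bound by many nuclear receptors, the direct repeat of AGGTCA with any 1 base between (DR1), which contains it, and the E-box CACGTG.
Plin5, chr9:1033285-1033534, minus strand: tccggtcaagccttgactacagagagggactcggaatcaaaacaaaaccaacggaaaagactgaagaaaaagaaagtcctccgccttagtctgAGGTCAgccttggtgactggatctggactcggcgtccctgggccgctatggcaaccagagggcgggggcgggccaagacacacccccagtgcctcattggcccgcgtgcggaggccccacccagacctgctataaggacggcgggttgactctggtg
Plin4, chr9:1025250-1025499, minus strand: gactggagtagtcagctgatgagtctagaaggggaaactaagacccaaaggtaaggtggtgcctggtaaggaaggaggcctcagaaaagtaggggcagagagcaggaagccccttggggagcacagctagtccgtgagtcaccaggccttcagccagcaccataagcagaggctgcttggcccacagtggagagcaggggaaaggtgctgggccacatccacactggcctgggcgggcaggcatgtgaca
Plin2, chr5:106229019-106229268, minus strand: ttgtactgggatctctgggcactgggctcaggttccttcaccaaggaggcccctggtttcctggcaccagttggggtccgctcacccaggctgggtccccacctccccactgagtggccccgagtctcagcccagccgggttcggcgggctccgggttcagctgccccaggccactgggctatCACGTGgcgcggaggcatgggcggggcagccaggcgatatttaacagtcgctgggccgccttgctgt
G0s2, chr13:107335949-107336198, minus strand: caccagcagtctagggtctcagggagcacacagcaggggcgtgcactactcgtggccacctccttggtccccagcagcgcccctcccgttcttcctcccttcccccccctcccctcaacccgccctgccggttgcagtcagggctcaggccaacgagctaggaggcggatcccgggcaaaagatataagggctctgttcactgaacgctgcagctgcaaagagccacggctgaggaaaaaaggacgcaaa

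Plin5 holds 1 AGGTCA, 157 bases before its start site, a motif found in 14.1% of 33469 promoter windows of the same length. Plin2 holds 1 CACGTG, 67 bases before its start, a motif in 5.59% of those windows. No listed window of Plin4, which has 5, or of G0s2, Plin1, Plin3 or Pnpla2 held a match. The DR1 motif was in 0.0508% of all windows and in none of the members'. Promoters of 7 members were in the table, and Dgat1, Dgat2 and Lipe had none there.

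Plin2, the general droplet coat whose level usually follows the amount of stored fat, had 73.9, 89.1 and 83.5 CPM in MOD and 62.3, 127.6 and 52.4 CPM in XHT. The 3 XHT values lay on both sides of the MOD values, with XHT 2 the highest of the 6 libraries and XHT 1 and XHT 3 the lowest. The means were 82.2 ± 7.72 and 80.8 ± 40.8 CPM (SD, n = 3 each), with a log2 fold change of -0.03 ± 0.33 (SE; adjusted p = 0.961). Plin3, a coat protein that moves between cytosol and small droplets, was the most even member, at 35.9 to 37.7 CPM in MOD and 35.2 to 43.7 CPM in XHT. Its log2 fold change was 0.15 ± 0.16 (SE; adjusted p = 0.478), and with libraries scaled to total counts it was -0.24.

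Plin1, the perilipin of fat cells, had 227 counts in MOD 1, 3 in XHT 2 and 0 in the other 4 libraries, and it was not tested. A count of 0 allows up to 3 counts in a library, 0.148 to 0.204 CPM, which covers counting error only. The MOD 1 library stood at 11.96 CPM and so made up the whole MOD mean. Markers of fat cells moved with it. The adipokine Adipoq had 534 counts in MOD 1 and between 0 and 15 elsewhere, Thrsp, a regulator of fat synthesis, 709 and between 0 and 22, the adipokine Retn 282 and between 0 and 12, and the fat cell droplet protein Cidec 209 and between 0 and 11. Of the 8 adipocyte markers, Lep, Cfd and Adrb3 were also highest in MOD 1. Fabp4, which endothelium and macrophages also express, was not, and it took most of the summed level of the list, 432.2 to 984.5 CPM in MOD and 601.1 to 1487.5 CPM in XHT. Thrsp and Adrb3 were at 0 counts in 3 and 4 libraries, Retn and Cidec in 3 each, Lep in 2 and Adipoq in 1. As a mean log2 CPM, the list stood at 4.26 in MOD 1 and at -0.16 and -0.18 in the other MOD libraries. In XHT 1, 2 and 3 it stood at -0.44, 1.31 and -0.17.

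On a scale that allows genes to be compared, the deposited FPKM (counts scaled to gene length and library size), the make-up of the perilipin family differed between the groups. Plin2 held 54.1%, 62.9% and 53.2% of the summed perilipin FPKM in MOD 1, 2 and 3, against 32.2%, 47.7% and 31.97% in XHT 1, 2 and 3. Plin4 held 1.89%, 0.915% and 7.91% in MOD and 31.8%, 19.7% and 23.0% in XHT. Plin5 held 0.630%, 0.369% and 5.03% in MOD and 10.4%, 9.57% and 7.58% in XHT. For these 3 genes the shares of the groups did not overlap, and in MOD 3 the shares of Plin4 and Plin5 lay between those of the other MOD libraries and those of XHT. Plin3 overlapped, at 38.0%, 35.8% and 33.9% in MOD and 25.6%, 23.1% and 37.5% in XHT. Shares of a sum depend on each other, and on the CPM scale the groups overlapped for Plin2. The perilipins summed to 75.9 ± 5.39 FPKM in MOD and to 111.5 ± 27.8 FPKM in XHT (SD, n = 3 each). The FPKM of all genes together also stood higher in XHT, at 787694 to 859097 against 497887 to 609748 in MOD. As a share of that total the perilipins overlapped between the groups, at 0.0117%, 0.0150% and 0.0136% in MOD 1, 2 and 3, against 0.0127%, 0.0181% and 0.0103% in XHT 1, 2 and 3.

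**Figure D2:**
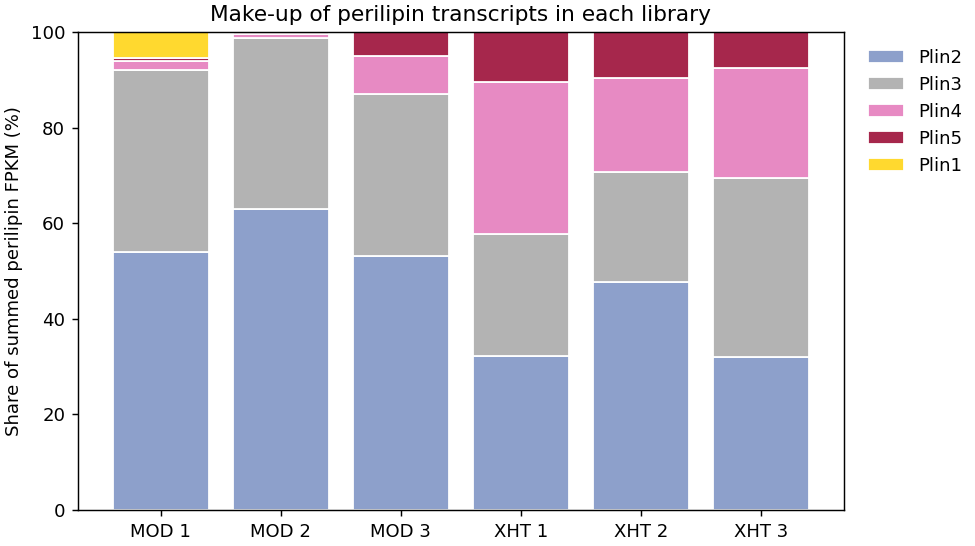
Each bar is 1 library, and its segments give the percent of the summed FPKM of the 5 perilipins held by each gene. Plin4 and Plin5 take 31.8% and 10.4% in XHT 1 against 0.915% and 0.369% in MOD 2, and the segment of Plin1 is visible in MOD 1.

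Ratios of 2 genes within a library do not depend on how the libraries are scaled. The log2 ratio of Plin4 to Plin2 counts was -3.67, -4.92 and -1.58 in MOD and 1.15, -0.11 and 0.69 in XHT. The difference between the group means was 3.97, and for Plin5 to Plin2 it was 3.71, with groups that did not overlap in either case (two-sided exact permutation p = 0.1 each, the smallest that 3 against 3 can give; 0.14 after Benjamini-Hochberg adjustment over 7 ratios). The ratio of Plin3 to Plin2 overlapped between groups, with a difference of 0.28 (exact permutation p = 0.6).

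Dgat1, the acyltransferase of the endoplasmic reticulum that re-esterifies incoming fatty acids, had 446, 360 and 408 counts in MOD and 756, 704 and 670 in XHT. The libraries of each group lay close together and the groups were far apart. Dgat1 rose from 20.8 ± 2.86 to 46.7 ± 3.18 CPM (SD, n = 3 each), a log2 fold change of 1.17 ± 0.17 (SE; adjusted p = 0.0106 by edgeR's quasi-likelihood test). The call was lost without XHT 1 (adjusted p = 0.0549) and kept without each other library.

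Dgat2, the unrelated enzyme that catalyses the same step, had 24.8, 15.3 and 16.8 CPM in MOD and 18.3, 33.6 and 15.8 CPM in XHT. The groups overlapped, with XHT 2 and MOD 1 the highest libraries. The log2 fold change was 0.25 ± 0.33 (SE; adjusted p = 0.584) and turned to -0.12 with scaling to total counts and to -0.14 without XHT 2. The log2 ratio of Dgat2 to Dgat1 was 0.08, -0.22 and -0.32 in MOD and -1.46, -0.40 and -1.53 in XHT. It was lower in every XHT library, with a difference of -0.97 between group means and with XHT 2 close to MOD 3 (two-sided exact permutation p = 0.1, adjusted p = 0.14).

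Lipe, which cleaves diglyceride, had 64.1, 51.1 and 86.0 CPM in MOD and 121.8, 176.2 and 91.5 CPM in XHT. XHT lay above MOD in all 6 libraries, with a narrow gap between MOD 3 and XHT 3. The means were 67.1 ± 17.6 and 129.8 ± 42.9 CPM (SD, n = 3 each), and the log2 fold change of 0.95 ± 0.30 (SE) did not pass the test (adjusted p = 0.0512). It passed with DESeq2 size factors (adjusted p = 0.0440), by DESeq2's Wald test (0.0172) and without MOD 3 (0.0147).

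G0s2, a small protein that binds Pnpla2 and blocks it, had 243, 205 and 334 counts in MOD and 33, 63 and 15 in XHT. MOD 3 was the highest library, and every XHT library was below every MOD library. G0s2 fell from 13.4 ± 3.56 to 2.39 ± 1.48 CPM (SD, n = 3 each), a log2 fold change of -2.48 ± 0.49 (SE; adjusted p = 0.0167 by edgeR's quasi-likelihood test). The call was lost without MOD 1 (adjusted p = 0.0579), XHT 1 (0.0726) or XHT 3 (0.0524), with log2 fold changes of -2.51 to -2.11. The 9 macrophage markers, 7 of which were called lower, differed by -1.97 in mean log2 CPM (XHT minus MOD). The 7 fibroblast markers, 6 of which were called lower, differed by -4.18. Of all tested genes, 16.1% were called lower. The part of either cell type in the fall of G0s2 was not tested.

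Pnpla2, the first lipase of the pathway, has its own identifier on chromosome 1 (213997709 to 214002815). There it had 0, 1 and 0 counts in MOD and 1, 15 and 13 in XHT, and it was not tested in the main fit. Without a count filter, without MOD 3 and by DESeq2's Wald test it was called higher, on these few counts. It was not called when any other library was left out. In the authors' deposited table its log2 fold change was 5.14 with an adjusted p of 0.0131. The table also holds LOC100911615, described there as similar to the same protein, at 214434626 to 214439720 on chromosome 1. This copy had 19, 28 and 27 counts in MOD and 1845, 727 and 90 in XHT. Every XHT library was above MOD, but XHT 3 lay nearer to MOD than to XHT 1. Reads that match both copies could have been split or set aside in counting, so each value is uncertain.

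With both identifiers summed, an alternative chosen after the data were seen, Pnpla2 went from 1.27 ± 0.24 to 58.8 ± 58.8 CPM (SD, n = 3 each; log2 fold change 5.52 ± 0.98 SE, adjusted p = 0.0143 by edgeR's quasi-likelihood test). Genes beside the 2 copies are doubled in the same way. The ribosomal gene Rplp2 had between 0 and 18 counts at its own identifier, and its copy LOC100911575 had 1202, 574 and 81 counts in MOD and 511, 518 and 1292 in XHT, so libraries of 1 group differed there too. With the copies summed, the log2 ratio of G0s2 to Pnpla2 counts was 3.64, 2.80 and 3.60 in MOD and -5.78, -3.55 and -2.74 in XHT. Every XHT library was lower (two-sided exact permutation p = 0.1). At the Pnpla2 identifier alone the near absence of counts in MOD leaves the ratio to the pseudocount, with a difference of -6.23 for 0.5 counts and -4.09 for 5, so no size is read from it. Abhd5, the activator of Pnpla2, stood at 40.9 ± 2.18 CPM in MOD and 33.9 ± 7.85 CPM in XHT (adjusted p = 0.313 by edgeR's quasi-likelihood test).

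In levels per length, read as an order within each group because the FPKM totals differ between groups, Plin2 was the highest member in MOD, at 43.0 ± 4.33 FPKM, followed by Plin3 at 27.2 ± 0.48, G0s2 at 17.8 ± 4.64, Lipe at 17.6 ± 4.51, Dgat1 at 11.6 ± 1.51 and Dgat2 at 5.85 ± 1.55 FPKM (SD, n = 3). Plin4, Plin5 and Plin1 came next, at 2.83 ± 3.16, 1.61 ± 2.17 and 1.29 ± 2.24 FPKM, each with a spread as large as its level. In XHT, Plin2 was at 43.2 ± 21.6, Lipe at 34.9 ± 11.3, Plin3 at 30.9 ± 3.76, Plin4 at 27.1 ± 6.31 and Dgat1 at 26.6 ± 1.80 FPKM, and neighbours in this order were closer than their spread. Plin5 followed at 10.4 ± 3.48, Dgat2 at 7.12 ± 3.00 and G0s2 at 3.26 ± 2.00 FPKM. By group means, G0s2 thus went from the third highest member to below Dgat2, and Plin4 from below Dgat2 to the level of Dgat1. In MOD, however, G0s2 and Lipe were closer than their spread. In MOD 3 Plin4, at 6.47 FPKM, was above Dgat2, at 5.17 FPKM.

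Set against the cardiomyocyte markers of the same library, Plin4 and Plin5 had overlapping groups. Plin2, Plin3 and G0s2 were lower in XHT, as a gene with unchanged CPM would also be. The mean log2 CPM of the 12 markers was 7.52, 7.40 and 10.90 in MOD and 12.21, 11.51 and 11.99 in XHT. The group means differed by 3.29. Of the 12, 1, Ryr2, was called higher and 0 lower, beside 12.4% and 16.1% of all tested genes. XHT lay wholly above MOD for 10 of the 12, beside 24.7% of all tested genes. DESeq2's Wald test called 7 higher (beside 16.2% of genes), and without MOD 3 edgeR called 12 higher (23.3%). The log2 level of Plin4 relative to these markers was -5.62 ± 0.59 in MOD and -5.10 ± 0.48 in XHT, and that of Plin5 was -7.78 ± 0.25 and -7.62 ± 0.78 (SD, n = 3 each). These differ by 0.52 and 0.16, with overlapping groups (two-sided exact permutation p = 0.3 and 0.8), and the sign for Plin5 turned without XHT 2. Relative to the markers, Plin2, Plin3 and G0s2 were lower in every XHT library, with log2 differences of -3.43, -3.15 and -5.88 (exact permutation p = 0.1 each; adjusted p = 0.267 over 8 genes). A gene with unchanged log2 CPM would be lower by the 3.29 of the markers. For Plin2 and Plin3, with log2 fold changes of -0.03 and 0.15, the difference largely restates that of the markers. Every difference relative to the markers contains it, also without MOD 3. For Plin2 the groups all but touched, at -4.51 in both MOD 3 and XHT 2. Dgat1, Dgat2 and Lipe had differences of -2.12, -3.09 and -2.36 with overlapping groups (exact permutation p = 0.3, 0.2 and 0.2). Without MOD 3 these were -3.25, -4.31 and -3.31 and the groups no longer overlapped (exact permutation p = 0.1 each), and those of Plin2, Plin3 and G0s2 were -4.56, -4.28 and -6.82. Dgat1, which rose on the CPM scale, was at -4.23 ± 1.97 in MOD and -6.36 ± 0.28 in XHT relative to the markers (SD, n = 3 each).

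**Figure D3:**
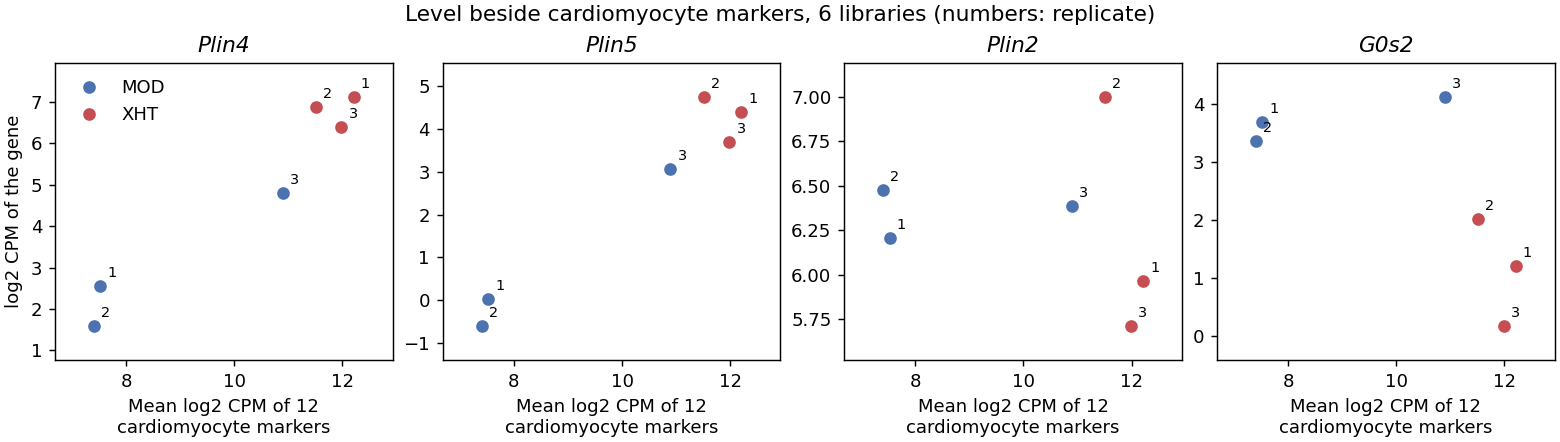
Each panel plots the log2 CPM of 1 gene against the mean log2 CPM of 12 cardiomyocyte markers, 1 point per library (blue MOD, red XHT; numbers are replicates). Plin4 and Plin5 are low in MOD 1 and MOD 2, higher in MOD 3 and highest in XHT, as the markers are, although within XHT the library with the lowest markers, XHT 2, has the highest Plin5. On the gene's own axis, Plin2 in MOD 3 lies between MOD 1 and MOD 2, and G0s2 in MOD 3 is the highest library. On the marker axis MOD 3 lies nearer to XHT than to the other MOD libraries.

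Among the other genes of the pathway, 32 of 37 were tested, and 5 rose and 5 fell, 15.6% each beside 12.4% and 16.1% of all tested genes. Of 12 tested genes of triglyceride synthesis, 3 rose and 1 fell, with a median log2 fold change of 0.20. Lpin1, the muscle phosphatidate phosphatase that also serves as a transcriptional coactivator, stood at 5.85, 2.77 and 8.64 CPM in MOD and 149.1, 71.4 and 73.7 CPM in XHT. The groups were far apart, with XHT 1 the highest library. Its log2 fold change was 4.09 ± 0.51 (SE; adjusted p = 0.00928 by edgeR's quasi-likelihood test). Gpam, the mitochondrial enzyme of the first acylation, rose from 7.42 ± 3.99 to 39.1 ± 7.16 CPM, and Gpat3, listed as Agpat9, from 7.65 ± 1.29 to 32.6 ± 7.73 CPM (SD, n = 3 each; adjusted p = 0.0117 and 0.00821). These 3 calls were lost without XHT 1 (adjusted p = 0.0530 to 0.0566) and kept without each other library. Agpat5, of the second acylation, fell by 0.70 ± 0.15 on the log2 scale (SE; adjusted p = 0.0215), a call lost without MOD 1, MOD 2, XHT 1 or XHT 3. Agpat2 stood at 11.3 ± 3.25 and 16.4 ± 3.50 CPM (adjusted p = 0.179).

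Of 8 genes of lipolysis and its regulators, 2 rose and 0 fell, beside 12.4% and 16.1% of all tested genes. Their median log2 fold change was 0.17. At an unadjusted p under 0.05 edgeR gave 3 higher and 1 lower, Lipa, and the share of all genes at that p was not counted. DESeq2's Wald test called 3 higher and 0 lower, beside 16.2% and 16.6% of the genes it tested. Mgll, which cleaves the last acyl chain from glycerol, stood at 21.5, 23.5 and 70.0 CPM in MOD and 102.1, 174.9 and 114.2 CPM in XHT, with a log2 fold change of 1.77 ± 0.49 (SE; adjusted p = 0.0370). Nceh1, a hydrolase of cholesterol esters, rose by 1.08 ± 0.33 (SE; adjusted p = 0.0475), and Hilpda, a hypoxia-induced inhibitor of Pnpla2, stood at 3.63 ± 1.12 and 4.66 ± 2.02 CPM (SD, n = 3 each; adjusted p = 0.517). The calls of Mgll and Nceh1 were lost with scaling to total counts and without each library except MOD 3.

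Of 12 tested genes of droplet assembly and coat, 4 fell and 0 rose, beside 16.1% and 12.4% of all tested genes. Their median log2 fold change was -0.31. Cidea and Fitm2, the latter named for this count after its values were seen, were the 2 higher at an unadjusted p under 0.05. At that p 4 were lower, and the share of all genes was not counted. DESeq2's Wald test called 2 higher and 4 lower, beside 16.2% and 16.6% of the genes it tested. Bscl2, seipin, which shapes the budding droplet, fell from 18.9 ± 2.70 to 8.51 ± 0.49 CPM (SD, n = 3 each; adjusted p = 0.0130 by edgeR's quasi-likelihood test). Ldah, a droplet-associated hydrolase, Acsl3, an acyl-CoA synthetase of nascent droplets, and Soat1, which esterifies cholesterol, fell by 1.19, 0.89 and 0.87 on the log2 scale (adjusted p = 0.0253, 0.0290 and 0.0180). Bscl2 lost its call without MOD 1, XHT 1 or XHT 3, Ldah and Soat1 without MOD 1, MOD 2, XHT 1 or XHT 3, and Acsl3 without MOD 1, MOD 2, XHT 1 or XHT 2.

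Cidea and Fitm1 had MOD 3 well above the other MOD libraries, and neither passed. Cidea, a droplet fusion protein, had 3.42, 2.52 and 24.0 CPM in MOD and 47.3, 72.8 and 46.9 CPM in XHT (adjusted p = 0.0605). Fitm1, which partitions triglyceride into droplets in striated muscle, had 1.79, 0.889 and 25.6 CPM in MOD and 31.6, 33.8 and 35.6 CPM in XHT (adjusted p = 0.226). Without MOD 3 both were called higher, with log2 fold changes of 4.24 and 4.66. Cidec was not tested, with most of its counts in MOD 1.

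**Figure D4:**
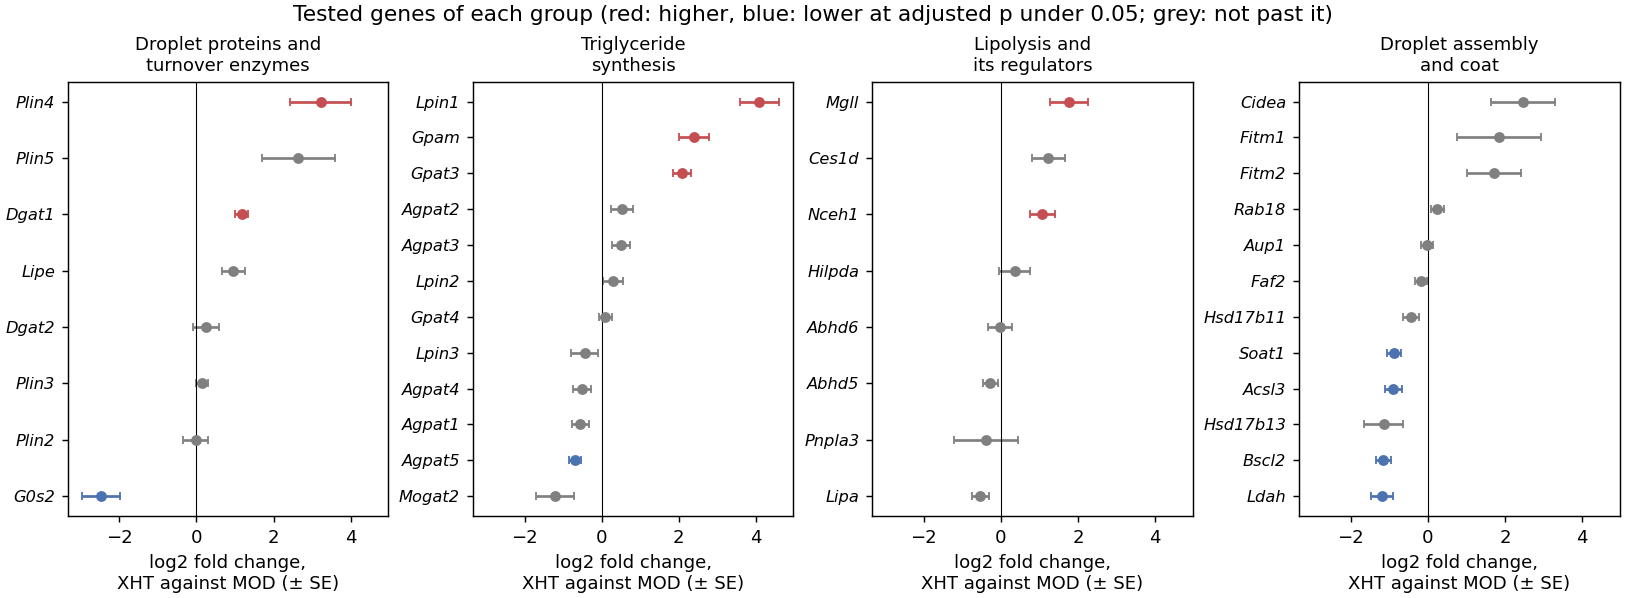
Points give the log2 fold change of XHT against MOD with its SE for every tested gene of the 4 groups, coloured by whether the gene passed an adjusted p of 0.05 in edgeR's quasi-likelihood test. Lpin1 at 4.09 and Plin4 at 3.22 are the highest called genes, and G0s2 at -2.48 is the lowest.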

How the data were processed

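The authors deposited 1 table with raw counts per gene and library (per the file headers), FPKM values made by the authors, and their own comparison with group means of normalised signal, log2 fold changes and p-values, also deposited. The submitters' processing notes name featureCounts 1.5.0-p3, DESeq2 1.16.1, HISAT2 2.0.5 and StringTie 1.3.3b. No source used here states their settings, the genome build or whether counting used strand. Per the labels' protocols, libraries were poly(A)-selected, took up dUTP in the second strand and carried unique molecular identifiers, whose use in counting is not stated.

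From the deposited counts, XHT was tested against MOD in R 4.3.3 with edgeR 4.0.16 (limma 3.58.1): TMM, filterByExpr (minimum count 10, total 15), a robust quasi-likelihood fit over all genes without covariates, and Benjamini-Hochberg adjustment. The SE of a fold change is its size over the root of F. CPM are TMM-normalised, log2 CPM used a prior count of 2, and ratios a pseudocount of 0.5 counts. The pipeline was tested on simulated data. No library pair was a duplicate (chi-square per degree of freedom at least 42.6). By this measure over all genes, MOD 3 was nearer to XHT 2 (112.84) than to MOD 1 (183.63) or MOD 2 (219.43). Alternatives included DESeq2 1.42.0. Total counts of 16550007 to 17724689 set the precision.

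Members and lists were chosen with earlier results of these data known. All members are named, called genes of the other lists up to 4 per list and direction, 10 further genes whatever their test, and, for each tested member, the 3 genes most like it. Older symbols were matched through RefSeq names, and Pecam1 had no row under that symbol. Protein sequences were not used here.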

Additional observations from a re-analysis of the deposited data

How the results depend on the processing

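Scaling to total counts moved the median over all tested genes from -0.02 to -0.42 on the log2 scale and the called genes from 1792 higher and 2336 lower to 925 and 4320. It left 2 members higher and 1 lower, and gave 3 higher and 11 lower among the other pathway genes against 5 and 5. DESeq2's Wald test called 5 members and 8 other pathway genes higher, beside 16.2% of the genes it tested. It called 1 member and 5 other pathway genes lower, beside 16.6%. Leaving out 1 library gave 4 to 3487 genes higher and 4 to 3421 lower, 0 to 5 members higher and 0 to 1 lower, and 0 to 10 other pathway genes higher and 0 to 6 lower. Signs turned for values near 0, and the cause was not tested. The log2 fold change of Plin2 was 0.0051 by DESeq2, 0.038, 0.0011, 0.14 and 0.22 without MOD 2, MOD 3, XHT 1 and XHT 3, and -0.51 without XHT 2, that of Plin3 was -0.24 and of Dgat2 -0.12 with total counts, and Dgat2 ran from -0.14 (without XHT 2) to 0.49 when 1 library was left out. Hilpda was at -0.026 with total counts and ran from -0.041 (without XHT 2) to 0.57. The difference in the Plin3 to Plin2 ratio ran from -0.028 (without XHT 3) to 0.61 and that of Plin5 relative to the markers from -0.26 (without XHT 2) to 0.50.

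The replicate numbers were not taken to pair the libraries: deviations from the group means correlated by -0.07, 0.25 and 0.12 for numbers 1, 2 and 3, and not every library correlated best with its own number. With the number as a block, 2101 genes were higher and 2309 lower, 2 members higher and 1 lower, Nceh1 was no longer called (adjusted p = 0.0795), and Cidea was (0.0372). Without a count filter, with DESeq2 size factors and with the legacy quasi-likelihood fit (added once the data had been seen), Plin4, Dgat1 and G0s2 kept their calls. Pnpla2 at its own identifier was also called higher without the filter, and Lipe with DESeq2 size factors. Genes under about 10 counts, such as Pnpla2 at its own identifier, are limited by depth.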

Other observations

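The genes around Plin5 and Plin4 were looked at after their values were seen. Within 25000 bases, Sema6b, a semaphorin, and Lrg1, a secreted leucine-rich glycoprotein, lie before Plin5 and rose by 1.57 ± 0.24 and 1.63 ± 0.25 on the log2 scale (SE; adjusted p = 0.0116 each by edgeR's quasi-likelihood test). In MOD 3 neither stood apart: Sema6b had 547, 500 and 458 counts in MOD 1, 2 and 3, and 1038, 907 and 1510 in XHT. Lrg1 had 983, 1389 and 1460 counts in MOD and 2877, 2518 and 3761 in XHT. On the other side of Plin4, Hdgfrp2 and Ubxn6 had log2 fold changes of -0.04 and 0.47 and did not pass (adjusted p = 0.880 and 0.0857).

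By Pearson correlation of log2 CPM over the 6 libraries, given as a description, the genes most like Plin4 were Sirt3, Mpc2 and Fars2 (r = 0.999, 0.999 and 0.998). Those most like Plin5 were Cpt2, Apol11a and Gm27029 (0.998, 0.997 and 0.997). For G0s2 they were RGD1563091, Mpeg1 and Plekhh3 (0.996, 0.993 and 0.992), and for Dgat1 AC119015.2, Paip2 and Gfm2 (0.997, 0.992 and 0.992). For Lipe they were Osgepl1, Sult1a1 and Gadd45a (0.988, 0.985 and 0.981), for Plin2 Rgs4, Ap1b1 and Ppp1r3b (0.992, 0.990 and 0.990), for Plin3 Ssu72, Oxsr1 and Cryl1 (0.994, 0.962 and 0.960), and for Dgat2 Atp6v0e1, Cnih4 and Adprm (0.986, 0.975 and 0.963). The points are the same 6 libraries in 2 groups, which also differ in the marker lists.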
